A study of Homo sapiens with 9 samples.

Results

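Collagen chain genes were examined in ASCs, the adipose-derived stem cells of the line ASC52telo, on Clariom S Human arrays. The genes were taken by name, as every gene whose symbol in the platform annotation reads COL, digits, A and digits, which gave 41 of 17687 named genes. Each of the 41 genes had 1 probe set. By collagen class, 10 were fibrillar, 10 were fibril-associated collagens with interrupted triple helices (FACIT), 9 formed networks, 5 formed microfibrils of the type VI kind, 3 were transmembrane collagens and 4 were of other kinds. The first 5 of these classes were named with the rule, and COL15A1, COL18A1, COL26A1 and COL28A1 were put together as others.

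Collagens are built from α chains that wind around each other into a triple helix, and each type needs its own set of chains, so that the genes of partner chains act together in 1 molecule. Fibrillar collagens make the fibrils that give skin and bone their strength, and FACIT collagens sit on the surface of those fibrils. Network collagens form sheets, among them the type IV collagen of basement membranes, and type VI collagen forms beaded microfibrils around cells. Adipose stem cells are connective tissue cells and secrete much of this matrix.

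All ASCs were of 1 telomerase-immortalized line, grew on dishes coated with type I collagen from rat tail, and were kept for 10 days in differentiation medium (DM). This medium was EpiLife with a growth supplement, bone morphogenetic protein 4, epidermal growth factor, ascorbic acid 2-phosphate, hydrocortisone and all-trans retinoic acid, and it reached all groups alike. The DM group received this medium alone, the DMSO group also received 0.1% DMSO as the vehicle, and the CID group also received 40 μM CID-1067700 (CID), a competitive inhibitor of nucleotide binding to the small GTPase Rab7. Each group had 3 arrays, of 9 in all. The sources do not say whether the CID wells held the same share of DMSO, nor whether the replicates came from separate cultures, and the spread behind each p-value may therefore be technical.

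The authors made the deposited values with the robust multi-array average, which gives 1 log2 value per probe set. Array medians lay between 7.06 and 7.14, and arrays of 1 group had a Pearson correlation of 0.994 to 0.995 across probe sets. The 8 mesenchymal stromal markers examined (VIM, THY1, NT5E, ENG, PDGFRA, PDGFRB, LUM and DCN) all had mean log2 values of 12.63 or more. Of the 10 keratinocyte markers named in the annotation, 9, all but ITGA6, lay among the dimmest 33.3% of probe sets, with a mean log2 value below 5.4. Planned markers that the annotation does not name could not be followed. A gene was called lower or higher when it had an adjusted p under 0.05 in limma, with Benjamini-Hochberg adjustment over all 21448 probe sets, and differed by 1.5-fold or more on the linear scale.

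With CID, the collagen chain genes that were called were all lower. Against DM, 4 of the 41 genes were called lower (9.76%), while 0.97% of all probe sets were called lower in that comparison. These were COL1A1, COL5A2, COL12A1 and COL8A1. Against DMSO, 7 of the 41 genes were called lower (17.1%), beside 1.74% of all probe sets, and COL1A2, COL5A1 and COL4A1 joined the 4 genes above. In either direction, 1.35% and 2.41% of all probe sets were called. No gene of the 41 was called higher in either comparison. Of all probe sets, 0.378% and 0.667% were called higher, shares so low that 0 of 41 genes says little. At an unadjusted p under 0.05, limma gave 1 higher gene in each comparison, COL14A1 against DM and COL26A1 against DMSO. With the lower genes, 9 against DM and 12 against DMSO, this made 10 and 13 of the 41 genes in either direction. Of all probe sets, 12.6% and 15.2% passed. At that threshold the methods' t-test gave 10 and 12 genes, and 0 after adjustment. The methods give this ordinary test for replicate data in general and name no test for the arrays. Both comparisons use the same 3 CID arrays and are not separate evidence. In bulk RNA, fewer cells that express a gene and less RNA of it per cell cannot be told apart.

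Most of the 41 genes did not pass the test. The median log2 fold change of the 41 genes was -0.10 against DM and -0.14 against DMSO, beside 0.01 and 0.02 over all probe sets. Values below 0 were seen for 26 genes (63.4%) against DM, beside 48.3% of all probe sets, and for 29 genes (70.7%) against DMSO, beside 46.5%. Of the genes that were not called, 34 of 37 against DM and 33 of 34 against DMSO had a 95% confidence interval that lay wholly within a 2-fold change either way. All 3 CID arrays lay below all 6 control arrays for 9 of the 41 genes (22%), beside 5.33% of all probe sets, and above them for 0 genes, beside 4.42%. The called genes all had mean log2 values over the 9 arrays of 9.89 or more, whereas 15 of the 41 genes lay among the dimmest 33.3% of probe sets. Of the probe sets above that limit, 1.44% were called lower against DM and 2.56% against DMSO, beside 4 and 7 of the 26 collagen genes above it.

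**Figure D1:**
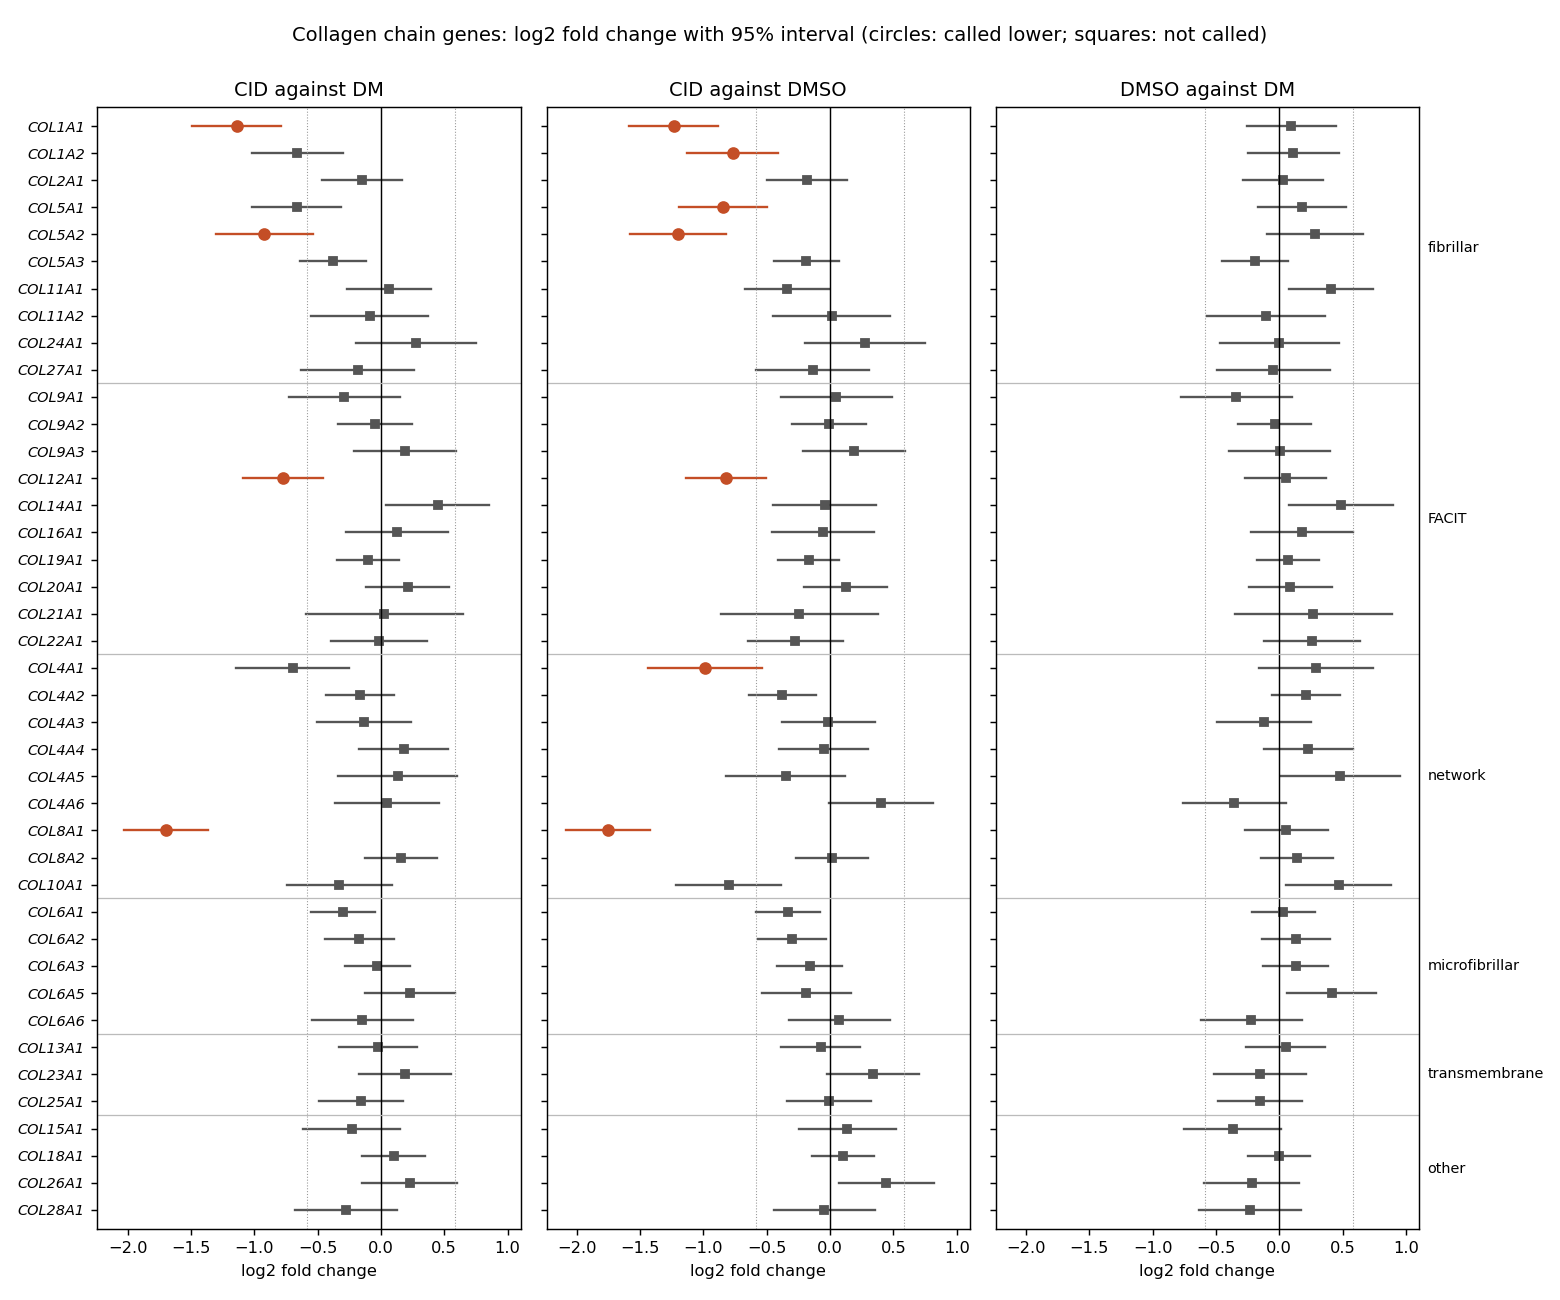
Log2 fold change of each of the 41 collagen chain genes (horizontal axis) for CID against DM, CID against DMSO and DMSO against DM, with 95% confidence intervals from limma as lines, genes grouped by class, circles for genes called lower, squares for the others and dotted lines at a 1.5-fold change. The 4 genes called against DM and the 7 called against DMSO stand left of 0, led by COL8A1, and no gene is called in DMSO against DM.

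Of the 7 called genes, 3 have an entry in the table of promoters used here, and the stretch before their start sites is printed because promoters lie there. In all, 30 of the 41 genes matched 42 entries (RefSeq, GRCh38.p14). COL1A1, COL1A2, COL5A2 and COL8A1 had none. Capitals mark 3 short motifs on either strand, the TATA box as TATAAA, the CCAAT box as CCAAT and the GC box as GGGCGG, and no marked motifs overlap. The type IV genes COL4A1 and COL4A2 start back to back, with 126 bases between their starts, so the whole interval is given, at chr13:110307158-110307283 on the minus strand, the strand of COL4A1. The intervals of COL5A1, at chr9:134641553-134641802 on the plus strand, and COL12A1, at chr6:75206054-75206303 on the minus strand, are the 250 bases before the start.
COL4A1 and COL4A2: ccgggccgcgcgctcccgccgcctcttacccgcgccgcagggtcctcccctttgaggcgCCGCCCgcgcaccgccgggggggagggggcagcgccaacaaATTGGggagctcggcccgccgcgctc
COL5A1: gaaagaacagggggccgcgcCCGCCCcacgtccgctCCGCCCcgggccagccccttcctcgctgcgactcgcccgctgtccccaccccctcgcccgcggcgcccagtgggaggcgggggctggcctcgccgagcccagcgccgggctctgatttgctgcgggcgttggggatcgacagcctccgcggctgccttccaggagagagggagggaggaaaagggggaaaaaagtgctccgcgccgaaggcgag
COL12A1: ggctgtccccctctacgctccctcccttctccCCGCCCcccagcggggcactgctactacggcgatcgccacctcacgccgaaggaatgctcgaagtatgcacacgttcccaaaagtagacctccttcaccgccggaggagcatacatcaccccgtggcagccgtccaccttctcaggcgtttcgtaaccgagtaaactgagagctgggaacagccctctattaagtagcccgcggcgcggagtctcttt
The interval of COL4A1 and COL4A2 held 1 CCAAT and 1 GGGCGG match and was 80.2% G and C. That of COL5A1 held 2 GGGCGG matches at 74.0% G and C, and that of COL12A1 held 1 at 61.2%. None of these intervals held TATAAA. Over the 250 bases before the start, GGGCGG was found in 54.8% of the 42 collagen entries and in 42.6% of all 35114 promoters, CCAAT in 26.2% and 32%, and TATAAA in 14.3% and 10.7%. The median share of G and C was 64.4% in the collagen entries and 58% in all promoters. GGGCGG and CCAAT are therefore common and TATAAA less so, and a match is a description of the letters only.

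Fibrillar collagens held the most calls, beside 1 each among FACIT and network collagens against DM, and 1 and 2 against DMSO. Of all probe sets, 0.97% were called lower against DM and 1.74% against DMSO. Of the 10 genes, 2 were called lower against DM and 4 against DMSO, with 0 called higher, and the median log2 fold changes of the class were -0.28 and -0.27. Against DM these were COL1A1 and COL5A2, and against DMSO they were COL1A1, COL1A2, COL5A1 and COL5A2, chains of types I and V, which assemble into the same fibrils in connective tissue. The remaining type V chain, COL5A3, was not called. COL1A1 encodes the α1 chain of type I collagen, the main collagen of skin and bone. The array values of COL1A1 on the log2 scale were 10.71, 11.17 and 10.68 in the DM arrays, 10.83, 11.16 and 10.86 in the DMSO arrays, and 9.80, 9.57 and 9.77 in the CID arrays. All CID arrays lay below all control arrays. COL1A1 was 2.20-fold lower against DM (-1.14 on the log2 scale, SE 0.16, adjusted p = 0.00686 from limma) and 2.36-fold lower against DMSO (-1.24, SE 0.16, adjusted p = 0.00258).

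COL1A2 encodes the α2 chain, which joins α1 chains in the usual type I molecule. With DM its log2 values were 15.28, 14.73 and 14.65, followed by 14.94, 15.12 and 14.93 with DMSO, and 14.30, 14.15 and 14.23 with CID. The CID arrays again lay below all control arrays, and the DM group was spread by the array DM 1, the highest of all 9. COL1A2 was 1.71-fold lower against DMSO (adjusted p = 0.0324 from limma, log2 fold change -0.77, SE 0.16). Against DM the log2 fold change was -0.66 (adjusted p = 0.0845), which did not pass the test. The call against DMSO was lost when any 1 of the DMSO or CID arrays was left out, with an adjusted p of up to 0.119.

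Type V collagen is found inside type I fibrils and limits their thickness. COL5A1, its α1 chain, had log2 values of 9.96, 10.37 and 9.84 with DM, 10.12, 10.45 and 10.14 with DMSO, and 9.43, 9.28 and 9.46 with CID. The CID arrays were the lowest 3 of the 9. COL5A1 had a log2 fold change of -0.85 against DMSO (SE 0.16, with an adjusted p = 0.0178 from limma), and that of -0.67 against DM did not pass (adjusted p = 0.0740). The call against DMSO was lost without DMSO 2, DMSO 3 or any of the CID arrays, with an adjusted p of up to 0.0749. COL5A2, the α2 chain of type V, had log2 values of 11.10, 11 and 10.83 with DM, 11.08, 11.68 and 11.01 with DMSO, and 10.13, 9.99 and 10.05 with CID. Here the CID arrays lay at least 0.70 below every control array, and DMSO 2 was the highest. COL5A2 fell by 0.92 on the log2 scale against DM (SE 0.17, adjusted p = 0.0271 from limma) and was 2.30-fold lower against DMSO (SE 0.17 on the log2 scale, adjusted p = 0.00468). The call against DM was lost when any 1 DM or CID array was left out, with an adjusted p of up to 0.105, whereas the call against DMSO held in all 9 such fits (adjusted p up to 0.0251).

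The other fibrillar genes were not called. COL5A3, the α3 chain of type V, is given here because its CID arrays also lay below all control arrays, and it was chosen after its values were seen. On the log2 scale its values were 5.92, 5.81 and 6.05 with DM, 5.71, 5.75 and 5.75 with DMSO and 5.59, 5.65 and 5.41 with CID, close to the dimmest probe sets. The fitted differences were -0.38 against DM (adjusted p = 0.184) and -0.19 against DMSO (adjusted p = 0.507). At the other end of the class stood COL24A1, a fibrillar collagen known from developing bone, with log2 values of 3.98 to 4.38 with DM, 3.99 to 4.68 with DMSO and 4.16 to 4.70 with CID. Its groups overlapped, and its log2 fold change was 0.28 in both comparisons (adjusted p = 0.650 and 0.599). The type II gene COL2A1 and the type XI genes COL11A1 and COL11A2, which belong to cartilage, had log2 fold changes from -0.34 to 0.07 over both comparisons, and COL27A1 had values of -0.18 and -0.14.

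**Figure D2:**
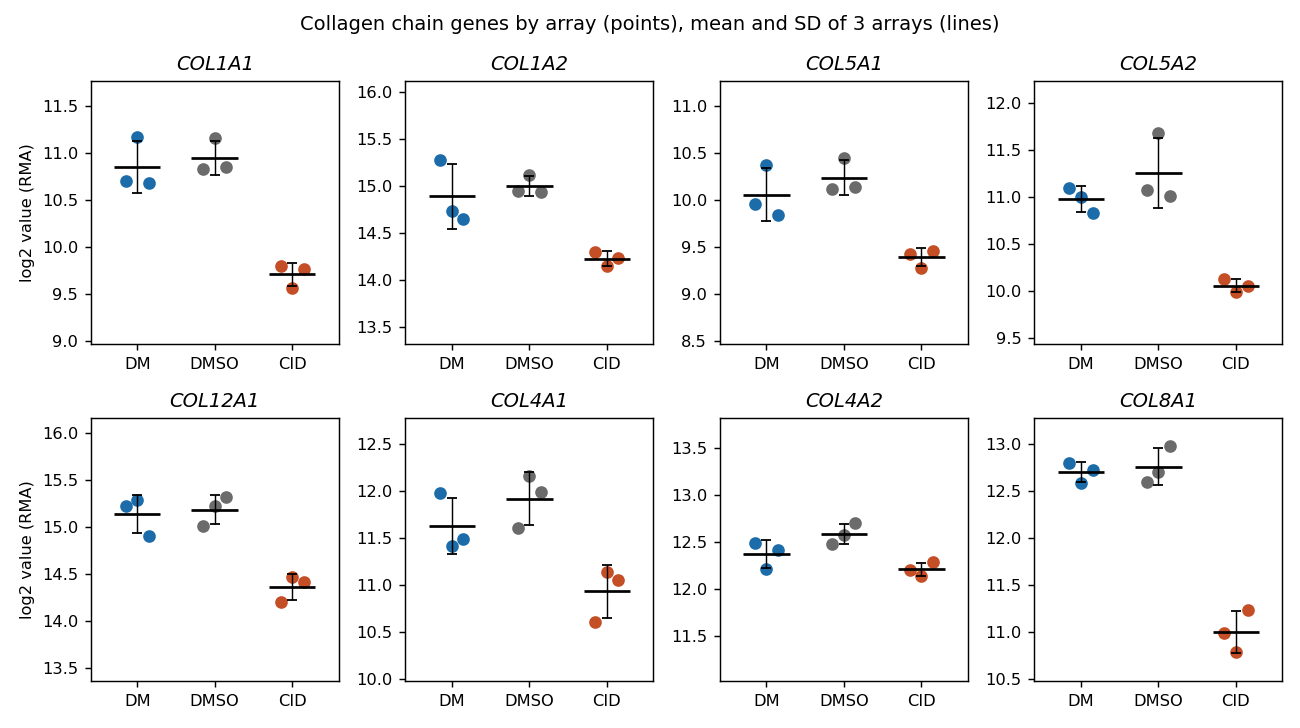
Log2 values of the 7 called genes and of COL4A2, with 1 point per array for the DM, DMSO and CID groups, a line at the group mean and bars of 1 SD (n = 3). The vertical axes span the same number of log2 units but start at different levels, so that heights compare within a gene only, and the CID points of all genes but COL4A2 lie below every control point.

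Among the FACIT collagens, 1 of 10 genes was called lower in each comparison with CID and 0 were called higher. Of all probe sets, 0.97% and 1.74% were called lower. The median log2 fold changes of the class were 0.01 against DM and -0.05 against DMSO. COL12A1 encodes type XII collagen, which bridges fibrils in tendon, ligament and skin. Log2 values of COL12A1 were 15.22, 15.28 and 14.90 with DM, 15.01, 15.22 and 15.32 with DMSO, and 14.20, 14.47 and 14.41 with CID. The CID arrays lay below all control arrays. COL12A1 was 1.71-fold lower against DM (-0.77 on the log2 scale, SE 0.14, adjusted p = 0.0265 from limma) and 1.77-fold lower against DMSO (-0.82, SE 0.14, adjusted p = 0.0129). The call against DM was lost without DM 1, DM 2 or any CID array, with an adjusted p of up to 0.109, and in a fit of only the DM and CID arrays (adjusted p = 0.0541, in a range of 0.000667 to 0.237 over all alternatives), and that against DMSO was lost without DMSO 2, DMSO 3 or CID 1, with an adjusted p of up to 0.0610.

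COL14A1, another FACIT collagen of tendon and skin, gave the highest log2 fold change of all 41 genes against DM. In the arrays it stood at log2 values of 10.01, 10.30 and 9.66 with DM, 10.59, 10.27 and 10.58 with DMSO, and 10.71, 10.22 and 10.38 with CID. The CID and DMSO arrays covered much the same range, and DM 3 was the lowest array. The log2 fold change was 0.45 (SE 0.19, adjusted p = 0.344) against DM and -0.04 (SE 0.19, adjusted p = 0.947) against DMSO, so neither passed the test. The other 8 FACIT genes had log2 fold changes from -0.29 to 0.21 against DM and from -0.27 to 0.19 against DMSO, and 4 of the 10 lay among the dimmest probe sets.

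Network collagens held the gene with the largest change. COL8A1 encodes the α1 chain of type VIII collagen, a short-chain collagen of blood vessel walls and of the membrane under the corneal endothelium. The 9 log2 values were 12.79, 12.58 and 12.72 with DM, 12.59, 12.70 and 12.97 with DMSO, and 10.98, 10.78 and 11.23 with CID. The control groups overlapped each other, and the highest CID array lay 1.35 below the lowest control array. COL8A1 was 3.25-fold lower against DM (-1.70 on the log2 scale, 95% confidence interval -2.03 to -1.37, adjusted p = 0.000427 from limma) and 3.38-fold lower against DMSO (-1.76, interval -2.09 to -1.43, adjusted p = 0.000334). It was called in all 9 fits that left out 1 array, in both comparisons, with an adjusted p of up to 0.00417 and 0.00288. The same was true of COL1A1, with an adjusted p of up to 0.0334 and 0.0146.

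The other 8 network genes fell into the type IV chains, COL8A2 and COL10A1. COL4A1 encodes the α1 chain that, with the α2 chain of COL4A2, makes the common type IV collagen of basement membranes. The log2 values of COL4A1 were 11.97, 11.41 and 11.49 with DM, 11.60, 12.15 and 11.99 with DMSO, and 10.60, 11.13 and 11.05 with CID. The CID arrays were again the lowest, with CID 1 below the other two. COL4A1 was 1.98-fold lower against DMSO (-0.99 on the log2 scale, SE 0.20, adjusted p = 0.0290 from limma), and the value against DM of -0.70 did not pass (adjusted p = 0.148). The call against DMSO was lost without DMSO 2, DMSO 3, CID 1 or CID 3, with an adjusted p of up to 0.110.

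COL4A2, which shares its start region with COL4A1 as printed above, had log2 values of 12.49, 12.21 and 12.41 with DM, 12.48, 12.57 and 12.70 with DMSO, and 12.20, 12.14 and 12.28 with CID. The CID arrays overlapped the DM arrays and lay below the DMSO arrays. The log2 fold change was -0.16 (95% confidence interval -0.43 to 0.10, adjusted p = 0.635) against DM and -0.38 (interval -0.64 to -0.11, adjusted p = 0.154) against DMSO. COL4A4, a type IV chain known from the kidney glomerulus, had log2 values of 5.88 to 6.10 with DM, 5.98 to 6.59 with DMSO and 6.06 to 6.26 with CID, and its differences were 0.18 (adjusted p = 0.702) and -0.05 (adjusted p = 0.925). COL10A1, the type X collagen of growth plate cartilage, was chosen after its values were seen, since its adjusted p against DMSO was 0.0514. Its log2 values were 4.01, 4.28 and 4.03 with DM, 4.45, 4.45 and 4.83 with DMSO, and 3.48, 4.19 and 3.66 with CID. These values were among the dimmest 33.3% of probe sets, the CID arrays overlapped the DM arrays, and the log2 fold changes were -0.33 against DM (adjusted p = 0.512) and -0.80 against DMSO.

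None of the 5 genes of type VI collagen was called in either comparison with CID, where 0.97% and 1.74% of all probe sets were called lower. At an unadjusted p under 0.05, 1 gene was lower against DM and 2 against DMSO. Of all 21448 probe sets, 1480 were lower at that threshold against DM and 1707 against DMSO. The median log2 fold changes of the 5 genes were -0.15 and -0.19. COL6A1, COL6A2 and COL6A3 encode the chains of the common type VI molecule. COL6A1 had log2 values of 15.36, 15.58 and 15.33 with DM, 15.40, 15.54 and 15.43 with DMSO, and 15.11, 15.12 and 15.14 with CID. The CID arrays lay below all control arrays and within 0.03 of each other. The difference was small, at -0.30 (95% confidence interval -0.55 to -0.05, adjusted p = 0.292) against DM and -0.33 (interval -0.59 to -0.08, adjusted p = 0.183) against DMSO.

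COL6A2 had log2 values of 14.36, 14.56 and 14.35 with DM, 14.55, 14.62 and 14.49 with DMSO, and 14.41, 14.23 and 14.12 with CID. The CID arrays overlapped the DM arrays only, and the differences were -0.17 (adjusted p = 0.622) and -0.30 (adjusted p = 0.272). COL6A3 had log2 values of 15.86, 16.08 and 15.78 with DM, 16.11, 16.02 and 15.98 with DMSO, and 15.88, 15.85 and 15.90 with CID. The difference was -0.03 (95% confidence interval -0.29 to 0.23, adjusted p = 0.944) against DM and -0.16 (interval -0.42 to 0.10, adjusted p = 0.575) against DMSO. COL6A5, a type VI chain of restricted distribution, was dim, with log2 values of 3.17 to 4.09 over the 9 arrays, with differences of 0.23 (adjusted p = 0.615) and -0.19 (adjusted p = 0.643).

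**Figure D3:**
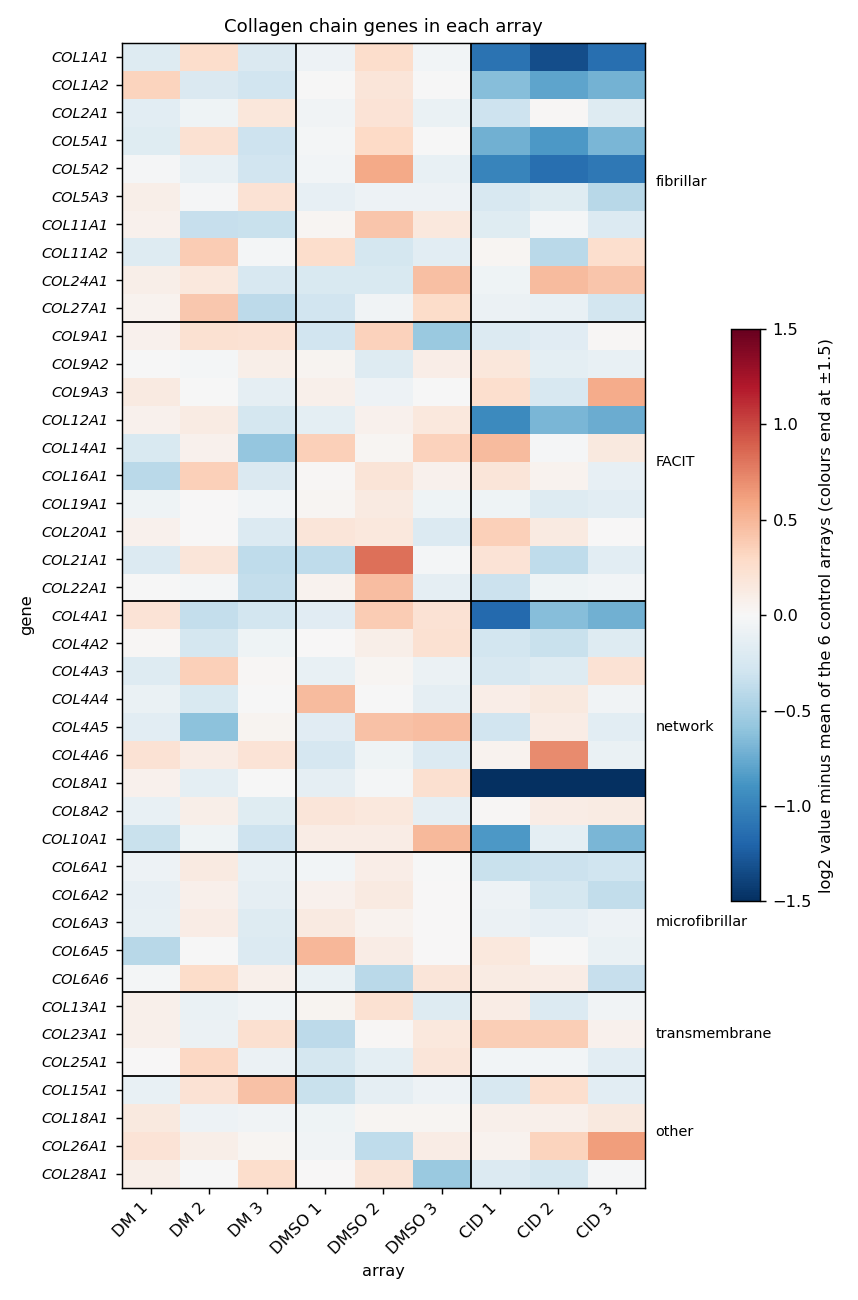
Each of the 41 collagen chain genes (rows, by class) in each of the 9 arrays (columns), as the log2 value minus the gene's mean over the 6 control arrays, with blue for lower and red for higher values and colours that end at 1.5 either way. The CID columns are blue in all 3 arrays for COL1A1, COL1A2, COL5A1, COL5A2, COL12A1, COL4A1 and COL8A1, and in CID 1 and CID 3 for the dim COL10A1, while the CID values of type VI collagen and of the transmembrane class are pale.

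Transmembrane collagens are anchored in the cell membrane, and none of the 3 genes was called in either comparison with CID. At an unadjusted p under 0.05, 0 of the 3 passed, where 12.6% and 15.2% of all probe sets did, so this says little. COL23A1 had log2 values of 9.96, 9.80 and 10.13 with DM, 9.49, 9.90 and 10.04 with DMSO, and 10.25, 10.25 and 9.95 with CID. The groups overlapped, and the log2 fold changes were 0.19 (adjusted p = 0.699) against DM and 0.34 (adjusted p = 0.366) against DMSO. COL25A1, which is known from the brain, had log2 values of 5.54 to 6.11 over the 9 arrays, and differences of -0.16 (adjusted p = 0.723) and -0.01 (adjusted p = 0.989).

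Of the 4 other collagens, 0 were called, and 1 was higher against DMSO at an unadjusted p under 0.05, as were 1544 of all 21448 probe sets. COL18A1 encodes a basement membrane collagen whose end fragment is endostatin, and its log2 values ran from 5.75 to 5.97 with DM, from 5.76 to 5.86 with DMSO and from 5.90 to 5.98 with CID. The log2 fold change was 0.10 in both comparisons (adjusted p = 0.768 and 0.729). COL26A1 gave the highest value of the 41 genes against DMSO, with a log2 fold change of 0.44 (95% confidence interval 0.07 to 0.82, adjusted p = 0.240) and 0.23 (adjusted p = 0.640) against DM. Its CID arrays, at 6.51, 6.79 and 7.09, overlapped both the DM arrays (6.67, 6.55 and 6.49) and the DMSO arrays (6.41, 6.08 and 6.57). COL28A1, at -0.28 against DM (adjusted p = 0.580) and -0.05 against DMSO (adjusted p = 0.940), was the lowest of the 4 against DM.

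Chains of 1 type are made for 1 molecule, so the difference of the log2 values of partner chains was followed within each array, set to 0 at the DM mean of each pair of genes. These differences were chosen with the results above known and are given with no test. For COL4A1 and COL4A2 they were 0.23, -0.05 and -0.17 with DM, -0.13, 0.33 and 0.04 with DMSO, and -0.85, -0.26 and -0.48 with CID. All CID arrays lay below all control arrays, and the change was -0.53 against DM and -0.61 against DMSO. For COL1A1 and COL1A2 the change was of like size, at -0.48 and -0.47. The CID arrays there, at -0.47, -0.55 and -0.43, nevertheless overlapped the DM arrays, of which DM 1 stood at -0.54 and DM 2 at 0.47. Without DM 1 the change against DM was -0.75, and without DM 2 it was -0.24.

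For COL5A1 and COL5A2 the difference moved the other way, by 0.25 against DM and 0.35 against DMSO, and the CID arrays (0.22, 0.21 and 0.33) overlapped the array DM 2 at 0.29. Without DM 1 the difference against DM was 0.14, and without DM 2 it was 0.40. For the type VI chains, COL6A1 over COL6A2 stood at -0.13 and -0.03, with overlap, and without CID 1 the value against DMSO was 0.05. COL6A1 over COL6A3 changed by -0.27 and -0.17, and its CID arrays, at -0.29, -0.25 and -0.28, lay below all control arrays, of which the lowest was DMSO 1 at -0.23. The type VIII partner of COL8A1, COL8A2, was dim, with log2 values of 2.87 to 3.23 over all 9 arrays and differences of 0.16 (adjusted p = 0.674) and 0.02 (adjusted p = 0.974).

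**Figure D4:**
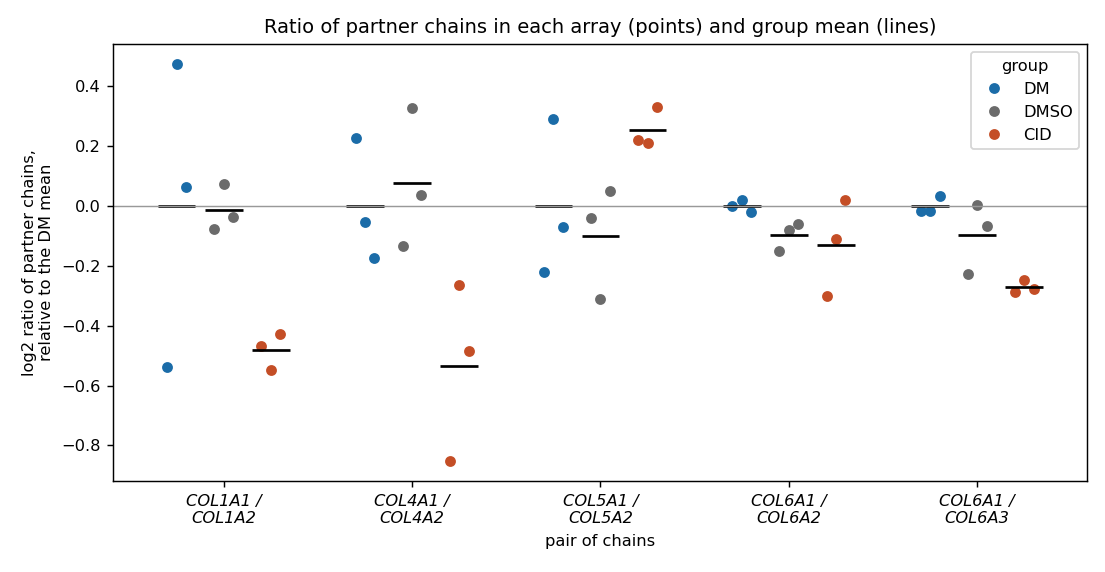
Log2 ratio of partner chains in each array (points), relative to the DM mean of that ratio (the line at 0), with group means as black lines, for 5 pairs of chains in the DM, DMSO and CID groups. The CID points lie apart from all control points for COL4A1 over COL4A2 and for COL6A1 over COL6A3, and overlap the DM points for COL1A1 over COL1A2.

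The vehicle was compared with DM alone in the same way. In DMSO against DM, 0 collagen chain genes were called in limma, where 1 of all probe sets was (0.00466%), and the lowest adjusted p of the 41 was 0.647. Of probe sets above the dimmest 33.3%, 0.00699% were called lower. At an unadjusted p under 0.05, 5 genes were higher and 0 were lower in limma (6.98% of all probe sets in either direction). At that threshold the methods' t-test for replicate data gave 2 genes, and 0 after adjustment. The median log2 fold change was 0.06, beside 0 over all probe sets, 14 genes (34.1%) were below 0, beside 50% of all probe sets, and all 41 intervals lay within a 2-fold change either way. For the 7 genes called with CID, the log2 fold changes of DMSO against DM ran from 0.05 for COL12A1 to 0.29 for COL4A1, so that each of these genes had a higher mean with DMSO than with DM. COL5A2 stood at 0.28 (adjusted p = 0.797), COL5A1 at 0.18 (adjusted p = 0.861), COL1A2 at 0.11 (adjusted p = 0.925), COL1A1 at 0.10 (adjusted p = 0.933) and COL8A1 at 0.06 (adjusted p = 0.963). The distance from CID was therefore larger against DMSO than against DM for all 7 genes, by those same amounts.

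Collagen needs helpers to fold, to be trimmed and cross-linked, and to be bound and broken down, and 5 lists of such genes were examined. Of all probe sets, 0.97% were called lower and 0.378% higher against DM, and 1.74% and 0.667% against DMSO. Among those above the dimmest 33.3%, 1.44% and 2.56% were called lower. An unadjusted p under 0.05 was reached by 12.6% of all probe sets against DM and 15.2% against DMSO, in either direction. Of 19 genes of collagen synthesis and folding, 0 were called against DM and 1 was called lower against DMSO. The median log2 fold changes were -0.09 and -0.20. At an unadjusted p under 0.05, 4 were lower and 3 higher against DM, and 8 were lower and 1 higher against DMSO. PPIB, at -0.58 against DMSO (adjusted p = 0.0396 in limma), stayed just under the fold threshold. The called gene was SERPINH1, which encodes the collagen chaperone HSP47. The values of SERPINH1 were 13.68, 13.57 and 13.60 with DM, 13.84, 14.22 and 13.59 with DMSO, and 13.26, 13.14 and 12.93 with CID, with differences of -0.51 (adjusted p = 0.197) against DM and -0.77 (adjusted p = 0.0310) against DMSO. Of 12 genes of extracellular maturation and cross-linking, 0 were called against DM (2 lower and 1 higher unadjusted). Against DMSO 1 was called lower (3 lower and 1 higher unadjusted). This was LOX, the lysyl oxidase that starts cross-links between collagen chains, with log2 values of 15.57, 14.97 and 15.27 with DM, 15.44, 15.58 and 15.58 with DMSO, and 14.87, 14.54 and 14.69 with CID. LOX had differences of -0.57 (adjusted p = 0.131) against DM and -0.83 (adjusted p = 0.0198) against DMSO.

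Proteins that sit on collagen fibrils held more calls. Of 14 such genes, 1 was called lower against DM, and 5 were called lower and 1 higher against DMSO. Over all probe sets, 0.97% were called lower against DM, and 1.74% lower and 0.667% higher against DMSO. SPARC, a collagen-binding matricellular protein, was called in both, with log2 values of 15.08, 15.17 and 14.95 with DM, 15.11, 15.40 and 15.12 with DMSO, and 14.30, 14.20 and 14.25 with CID. It changed by -0.82 (SE 0.12, adjusted p = 0.00957 from limma) and -0.96 (SE 0.12, adjusted p = 0.00258). The small leucine-rich proteoglycans, which coat fibrils and steer their growth, did not all go 1 way. Lumican (LUM), decorin (DCN) and fibromodulin (FMOD) were 2.30-fold, 1.62-fold and 1.54-fold lower against DMSO (adjusted p = 0.00709, 0.00587 and 0.0498), and their CID arrays lay below all control arrays. Against DM their log2 fold changes of -0.73, -0.48 and -0.51 did not pass in limma (adjusted p = 0.0922, 0.0527 and 0.141). In DMSO against DM they stood at 0.47, 0.22 and 0.12, none of them called. Biglycan (BGN) was higher by 0.64 against DMSO (adjusted p = 0.0229), while its 0.43 against DM did not pass in limma (adjusted p = 0.153). Its log2 values of 15.38, 15.41 and 15.39 with CID lay above all control arrays, which ran from 14.53 to 15.01.

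Osteoglycin (OGN) was called lower against DMSO (log2 fold change -1.06, adjusted p = 0.00926), but its control groups stood apart. It stood at 8.80, 8.59 and 8.84 with DM, 9.64, 9.71 and 9.52 with DMSO, and 8.99, 8.37 and 8.32 with CID, so that the CID arrays overlapped the DM arrays. Among 9 collagen receptors, 0 were called against DM (2 lower and 1 higher unadjusted). Against DMSO 1 was called lower and 1 higher (2 lower and 2 higher unadjusted). Of all probe sets, 1.74% were called lower and 0.667% higher against DMSO. The unadjusted shares in either direction were 12.6% against DM and 15.2% against DMSO. ITGA11, an integrin chain that binds fibrillar collagen, had log2 values of 9.45, 9.39 and 8.85 with DM, 9.18, 9.70 and 9.15 with DMSO, and 8.55, 8.49 and 8.15 with CID, with differences of -0.83 (adjusted p = 0.0784) and -0.95 (adjusted p = 0.0333). ITGA10, an integrin chain of cartilage, was higher by 0.82 against DMSO (adjusted p = 0.0151), and its CID values of 7.20, 7.48 and 7.39 overlapped the DM values of 6.98, 7.28 and 7.13. Of 8 proteases that degrade collagen, 0 were called in either comparison with CID, where an unadjusted p under 0.05 was reached by 2 higher genes against DM and by 1 lower and 1 higher gene against DMSO.

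**Figure D5:**
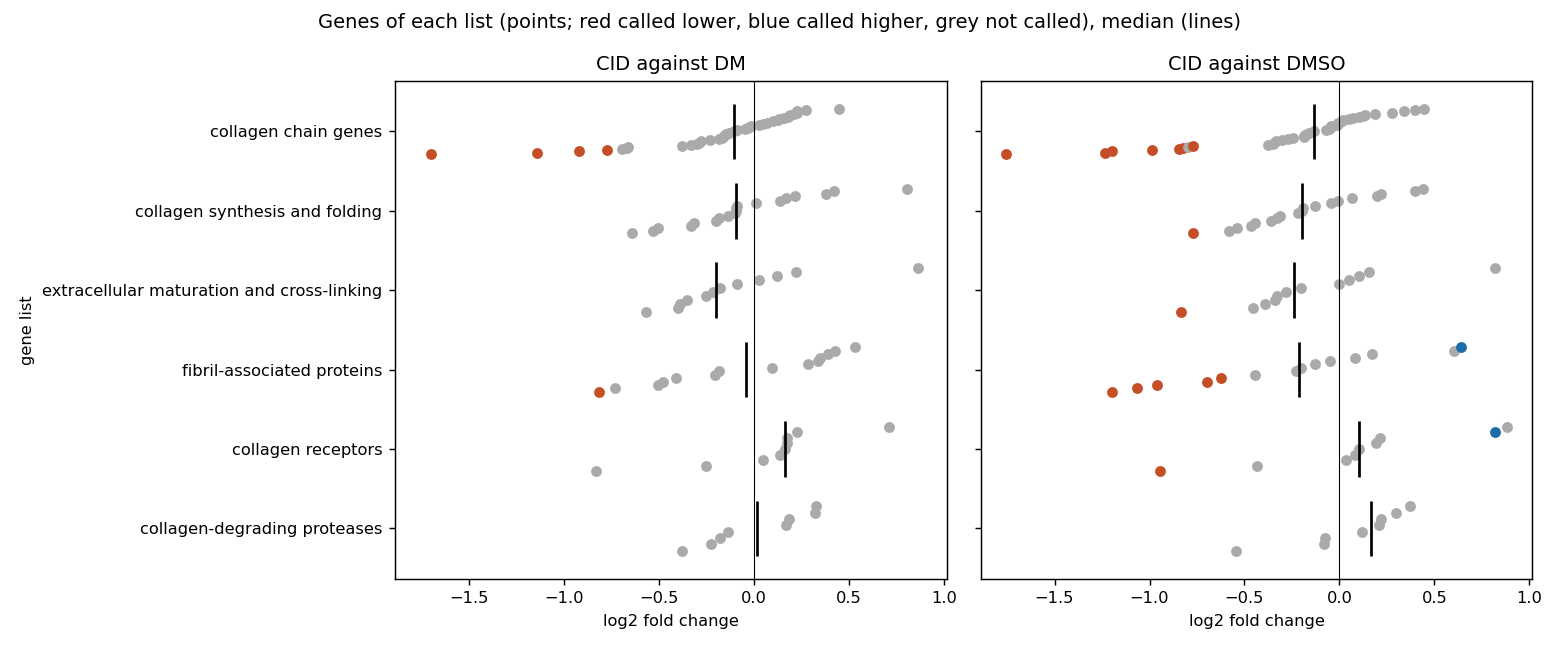
Log2 fold change (horizontal axis) of each gene of the collagen chain genes and of the 5 related lists, for CID against DM and CID against DMSO, with 1 point per gene, red for called lower, blue for called higher, grey for not called, and a line at the median of each list. The medians lie close to 0, and the called collagen chain genes all sit left of 0, while the genes called against DMSO lie on both sides among the fibril-associated proteins (BGN to the right) and the collagen receptors (ITGA10 to the right).

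The marker lists were followed in the same arrays. The mean log2 value of the 8 mesenchymal stromal markers was 14.96 to 15.04 in the DM arrays, 15.11 to 15.16 in the DMSO arrays and 14.68 to 14.74 in the CID arrays, with no overlap. PDGFRA, a growth factor receptor of stromal cells, was called lower against DM (log2 fold change -0.65, adjusted p = 0.0337 from limma). PDGFRA, PDGFRB, LUM and DCN were called lower against DMSO, and LUM and DCN are also in the list of fibril-associated proteins. Over all probe sets, 0.97% were called lower against DM and 1.74% against DMSO. The other 4 markers were not called and did not all go 1 way. THY1 had log2 values of 12.92, 12.90 and 12.91 with CID, above all control arrays, which ran from 12.14 to 12.75, with log2 fold changes of 0.39 against DM (adjusted p = 0.416) and 0.45 against DMSO (adjusted p = 0.271). NT5E stood at -0.24 against DM (adjusted p = 0.437) and -0.34 against DMSO (adjusted p = 0.186), VIM at -0.06 and -0.14 (adjusted p = 0.856 and 0.582), and ENG at -0.04 and 0.10 (adjusted p = 0.932 and 0.755). The part of these markers in the collagen results was not tested. The mean over the 10 keratinocyte markers was 4.48 to 4.71 with DM, 4.51 to 4.74 with DMSO and 4.51 to 4.56 with CID. Of these 10 markers 0 were called (0 at an unadjusted p under 0.05 against DM and 1 lower against DMSO). At that threshold 12.6% and 15.2% of all probe sets passed in either direction. Of the 6 chondrocyte, 4 osteoblast, 4 endothelial and 4 leukocyte markers, 0 were called in either comparison.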

How the data were processed

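RNA of 9 ASC52telo samples, 3 per group, was hybridised to Clariom S Human arrays. The authors made the deposited values, on the log2 scale, by RMA (Transcriptome Analysis Console). The sources used here name neither its version nor the RMA variant. Neither background correction nor the summary of probes could be repeated, and precision is limited by the number of arrays. Of 21448 probe sets, 17709 carried 1 symbol in the platform annotation, which can be old, and 3739 none. A gene with several probe sets would be given by the brightest, but each collagen gene had 1. Collagen classes came from a table of 44 chain genes, of which 3 are not named in the annotation used here and were not analysed, so that the class counts leave them out.

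Group means were fitted in limma 3.58.1 (R 4.3.3) on all 9 arrays together (6 residual degrees of freedom), as 3 comparisons, and p-values were adjusted (Benjamini-Hochberg) over all probe sets. A call needed an adjusted p under 0.05 and a linear fold change of at least 1.5. In the methods that fold stands once as log2 and once as linear. Confidence intervals are the 95% intervals of the fit. The fit was tested on simulated data. The genes named are all called collagen genes, the highest and lowest of each class in CID against DM, a list of the main chains, and the called genes of the related lists, with exceptions marked. The collagen genes and all lists were chosen with earlier results of these data known. No set of genes was tested as such. Promoters were searched for short motifs in RefSeq sequences (GRCh38.p14). The alternatives were other fold thresholds, filters, priors, normalizations and tests, array weights, only the arrays compared, a replicate block, the mean of the probe sets, and leaving out each array. Figures were drawn with matplotlib 3.10.9.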

Additional observations from a re-analysis of the deposited data

How the results depend on the processing

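The 6 counts of called collagen genes were recomputed under 22 alternatives each, and 116 of 132 values stayed within 1.5 times the first value. Most of these 116 were counts of 0 that stayed 0, for which a ratio says nothing. Of the other values, 15 were lower and 1 was higher, all of them numbers of genes called lower with CID. For CID against DM, 4 genes were called lower at first. Of these, 2 were called at a fold of at least 2 and 1 at a log2 fold change of at least 1.5. A trended and robust prior gave 7 (COL1A2, COL5A1 and COL4A1 being added), and the ordinary t-test gave 0 after adjustment. Leaving out 1 array gave 2 to 4 genes, with 2 without DM 1, DM 2, CID 1, CID 2 or CID 3. For CID against DMSO, 7 genes were called lower at first. The counts were 3 at a fold of at least 2, 1 at a log2 fold change of at least 1.5 and 0 with the ordinary t-test. They were 3 to 7 when 1 array was left out, with 3 without DMSO 2, DMSO 3 or CID 1 and 4 without CID 3. No alternative gave a collagen gene called higher, or any call in DMSO against DM. Only COL1A1 and COL8A1 were called in both comparisons with CID in every fit that left out 1 array. Each scaling moved the median of all probe sets by under 0.1 on the log2 scale.

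Deviations of same-numbered replicates were at most weakly correlated (-0.052 to 0.068, beside -0.071 to 0.061 for other numbers). Between DMSO and CID, however, same numbers gave 0.068, 0.065 and 0.068, and other numbers gave only values below 0 (-0.049 to -0.017). Whether the numbers pair the arrays is therefore not known. With the replicate number as a block, 4 collagen genes were called lower against DM and 6 against DMSO, where the call of COL4A1 was lost (adjusted p = 0.0550). COL1A2 against DMSO was lost with quantile normalization applied again (adjusted p = 0.0504, in a range of 0.00161 to 0.119 over its alternatives).

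Log2 fold changes near 0 changed sign. With array weights COL6A3 in CID against DM became 0.00083, and leaving out 1 array gave it -0.093 to 0.057. In CID against DMSO the same fits gave COL14A1 -0.18 to 0.065, COL4A4 -0.17 to 0.13, COL25A1 -0.10 to 0.12 and COL28A1 -0.27 to 0.11. In DMSO against DM they gave COL1A1 -0.0083 to 0.26, COL1A2 -0.0083 to 0.31, COL12A1 -0.067 to 0.14 and COL8A1 -0.052 to 0.14. None of these was called, and the cause was not tested. Each of the 120 alternative values for partner chains lay within 1 SD of the first value, but some moved by over 1.5 times when 1 array was left out. COL1A1 over COL1A2 ran from -0.75 to -0.24 against DM and COL5A1 over COL5A2 from 0.14 to 0.40, while COL6A1 over COL6A2 ran from -0.21 to -0.045 against DM and from -0.11 to 0.05 against DMSO, where its sign turned without CID 1. The 15 dim collagen genes limit what can be said of those chains.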
